A study of Populus ussuriensis with 12 samples.

Results

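Root tips of poplar plants that overexpress PuC3H35 (OE) were compared with wild-type root tips (WT) after both had grown on medium with PEG6000, which makes water harder to take up. The comparison rests on 6 of the 12 RNA-seq libraries of the study, 3 OE PEG libraries against 3 WT PEG libraries, and on the 22849 of 34699 listed genes whose level averaged at least 1 FPKM over those 6 libraries. All plants were Populus ussuriensis grown in vitro. At 1 week of age they were moved for 7 days to half-strength Murashige and Skoog agar, and the terminal 0.5 cm of the root was then taken for RNA. OE PEG plants carried the PuC3H35 overexpression genotype on agar with 6% PEG6000, and WT PEG plants were wild type on the same agar. OE and WT plants on agar without PEG, called ordinary medium here, supplied 3 libraries each. The labels of the 6 OE libraries carry 6 different C3H numbers, although the series title speaks of a single overexpression line, so the 3 OE PEG libraries are treated as 1 genotype. The sources used here do not give the promoter of the transgene, and nothing says that the libraries of a group came from separate plants or pools. The p-values therefore measure the spread between these libraries, which may be technical.

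CCCH zinc finger proteins, the family that gives C3H genes their name, bind nucleic acids through zinc-coordinating cysteine and histidine residues. In plants many of them act on messenger RNA or on transcription, and several alter tolerance to drought or salt. Polyethylene glycol of high molecular weight is not readily taken up by cells and lowers the water potential of the medium, so that a root meets a water deficit without drying. The root tip holds the cap, the meristem and the start of the elongation zone, the tissues through which a root meets dry soil first. The files pair no gene with a name or description, so genes appear below by their Potri identifiers, the locus names of the Populus trichocarpa genome, and no function is given for any of them. For the same reason the level of PuC3H35 itself and root cell type markers were not analysed here. In these identifiers the digits before the letter G give the chromosome.

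Libraries held 27661400 to 37106341 reads in the PEG groups, as recovered from the steps between the deposited values, and 22475 to 22724 genes reached 1 FPKM in each of them. FPKM divides the fragments on a gene by its length and by the mapped total of the library, so it can be compared between genes of different length. At 1 FPKM a tested gene of median length was covered by 50.4 to 67.6 reads in the PEG libraries, so the depth behind most values below is high. Pairs of replicates of 1 PEG group differed with a chi-square of 2.90 to 4.12 per degree of freedom over their recovered reads, which would be smaller if fragments were counted as 2 reads, and none was merged. Among genes at 10 FPKM or more the median coefficient of variation over replicates was 3.90% in OE PEG and 4.08% in WT PEG.

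Under PEG the OE root tips differed from WT at most of the genes measured. With limma on log2(FPKM + 1) and Benjamini-Hochberg adjustment over all 22849 genes, 8344 genes (36.5%) were higher in OE PEG and 7314 (32.0%) were lower at an adjusted p under 0.05. Most of these differences were small. Of the genes called, 65.8% differed by less than 1.5-fold, and the median absolute log2 difference was 0.44, where the median standard error over all genes was 0.074. Differences of at least 2-fold were found at 1408 genes that were higher (6.16%) and 776 genes that were lower (3.40%). In tissue RNA, more cells of a type and more RNA per cell cannot be told apart.

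The direction of the large differences was uneven. At 4-fold or more, 437 genes were higher in OE PEG and 67 were lower, and at 8-fold the counts were 128 and 6. At 16-fold, 35 genes were higher and 0 lower on the (FPKM + 1) scale, which holds back the fold of low genes. With voom on recovered reads, which adds less to low values, 131 genes were higher and 10 lower at 16-fold, and 295 and 37 at 8-fold. On ordinary medium, in the same genes, OE plants were higher than WT at 7260 (31.8%) and lower at 5222 (22.9%), and at 2-fold at 881 (3.86%) and 170 (0.744%). Genes were kept by their level in the PEG libraries alone, so genes expressed mainly on ordinary medium are missing from these counts. There 103 genes were higher by 4-fold and 7 were lower.

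**Figure D1:**
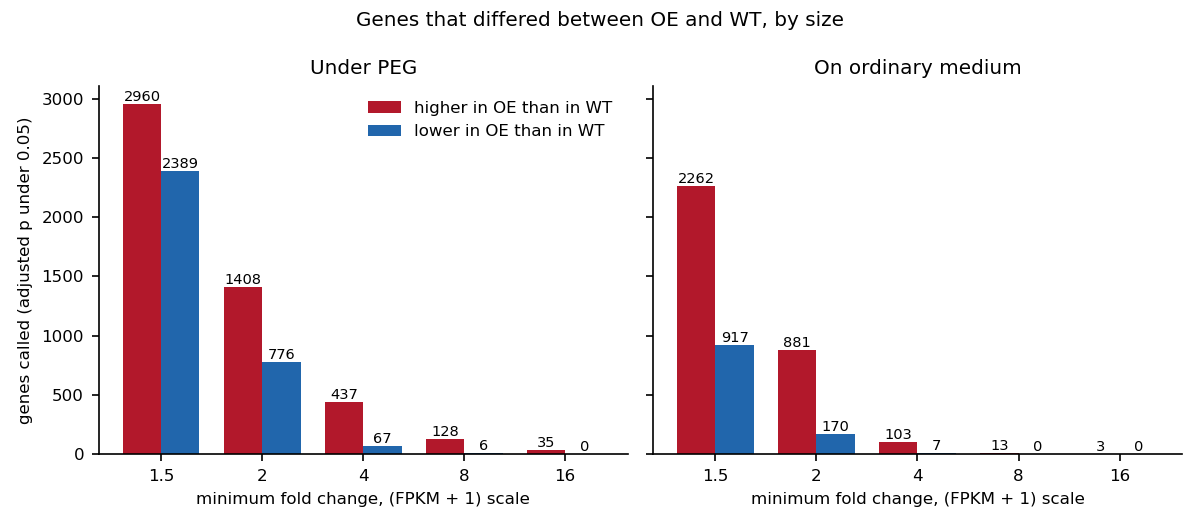
Number of genes called (vertical axis) at each minimum fold change (horizontal axis, on the FPKM + 1 scale) for OE against WT under PEG (left) and on ordinary medium (right). Red bars are genes higher in OE and blue bars are genes lower in OE; under PEG the 2 directions are 1408 and 776 at 2-fold, and 128 and 6 at 8-fold.

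The balance of all calls depended on how libraries were scaled. The deposited FPKM values summed to 661656 to 665551 in the OE PEG libraries and to 610202 to 611296 in the WT PEG libraries. As deposited, 53.3% of the calls were rises in OE PEG. When every library was brought to the same sum, the median difference of all genes shifted by -0.10 on the log2 scale and 41.0% of the calls were rises, and with quantile normalization 45.0% were. At 2-fold the share that was higher was 64.5% as deposited, 55.5% with equal sums and 56.8% with quantile normalization. No gene called as deposited was called in the opposite direction with equal sums, and 29 of the 15658 were with quantile normalization.

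The 2 genes with the largest rise in OE PEG, by a rule that asked for a mean of at least 10 FPKM in the higher group and no overlap between libraries, were on chromosomes 3 and 4. Potri.003G068900 had 111, 114 and 115 FPKM in the OE PEG libraries, against 0.573, 0.737 and 0.401 FPKM in the WT PEG libraries. Behind these values stood 4344, 4367 and 5399 reads in OE PEG and 20, 30 and 16 reads in WT PEG. On ordinary medium it had 3.65, 3.65 and 3.26 FPKM in OE, against 0.614, 0.479 and 0.622 FPKM in WT. The OE PEG libraries thus stood alone, with no overlap between OE and WT on either medium. The difference under PEG was 6.19 ± 0.081 on the log2(FPKM + 1) scale (SE, 3 libraries per group, limma, adjusted p = 5.6e-16), and the OE PEG mean was 199 times the WT PEG mean.

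Potri.004G182100 had 122, 111 and 118 FPKM in the OE PEG libraries and 1.01, 1.82 and 1.30 FPKM in the WT PEG libraries. On ordinary medium it had 5.51, 6.02 and 6.45 FPKM in OE, against 0.114, 0.104 and 0.0934 FPKM in WT, the WT values resting on 4 reads in each library. Its 4 groups did not overlap, and both genotypes had more of it under PEG than on ordinary medium. The log2 difference between OE and WT under PEG was 5.65 ± 0.10 (SE, limma, adjusted p = 4.8e-15).

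The 2 genes with the largest fall lay on chromosomes 16 and 13. Potri.016G057600 had 6.12, 5.12 and 4.70 FPKM in the OE PEG libraries, against 91.3, 89.1 and 91.3 FPKM in the WT PEG libraries. On ordinary medium its highest value was 0.0817 FPKM in OE and 0.222 FPKM in WT, and it was listed at 0 in 1 OE library and in 2 WT libraries. This gene was therefore near 0 without PEG in both genotypes and was present under PEG in both, at a mean of 5.31 ± 0.729 FPKM in OE and 90.6 ± 1.27 FPKM in WT (SD, n = 3 each). The log2 difference under PEG was -3.86 ± 0.095 (SE, limma, adjusted p = 1.1e-13).

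Potri.013G049925 had 3.94, 4.03 and 3.38 FPKM in the OE PEG libraries, against 56.5, 62.4 and 67.6 FPKM in the WT PEG libraries. It had 20.9, 20.6 and 22.9 FPKM in OE and 44.0, 42.1 and 47.3 FPKM in WT on ordinary medium. All 4 groups stood apart, with OE PEG the lowest and WT PEG the highest. The log2 difference was -3.72 ± 0.072 under PEG and -1.02 ± 0.072 on ordinary medium (SE, limma, adjusted p = 1e-14 and 2.4e-08).

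By the same rule, the 8 genes with the largest rise averaged 39.9 to 529.6 FPKM in OE PEG and 0.111 to 15.9 FPKM in WT PEG, with log2 differences of 4.87 to 6.19. On ordinary medium 8 of these 8 were called higher in OE, with log2 differences of 1.03 to 3.21, where 31.8% of all genes tested were called higher. The 8 genes with the largest fall averaged 0.506 to 5.31 FPKM in OE PEG and 12.001 to 90.6 FPKM in WT PEG, with log2 differences of -3.86 to -2.83. Taken as plain means, the OE PEG level of these genes was lower than that of WT PEG by 11.3-fold to 25.96-fold, past 16-fold for 5 of the 8. On ordinary medium 7 of them were called, 4 lower and 3 higher in OE, where 22.9% of all genes were called lower and 31.8% higher, and nothing is read from so few.

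**Figure D2:**
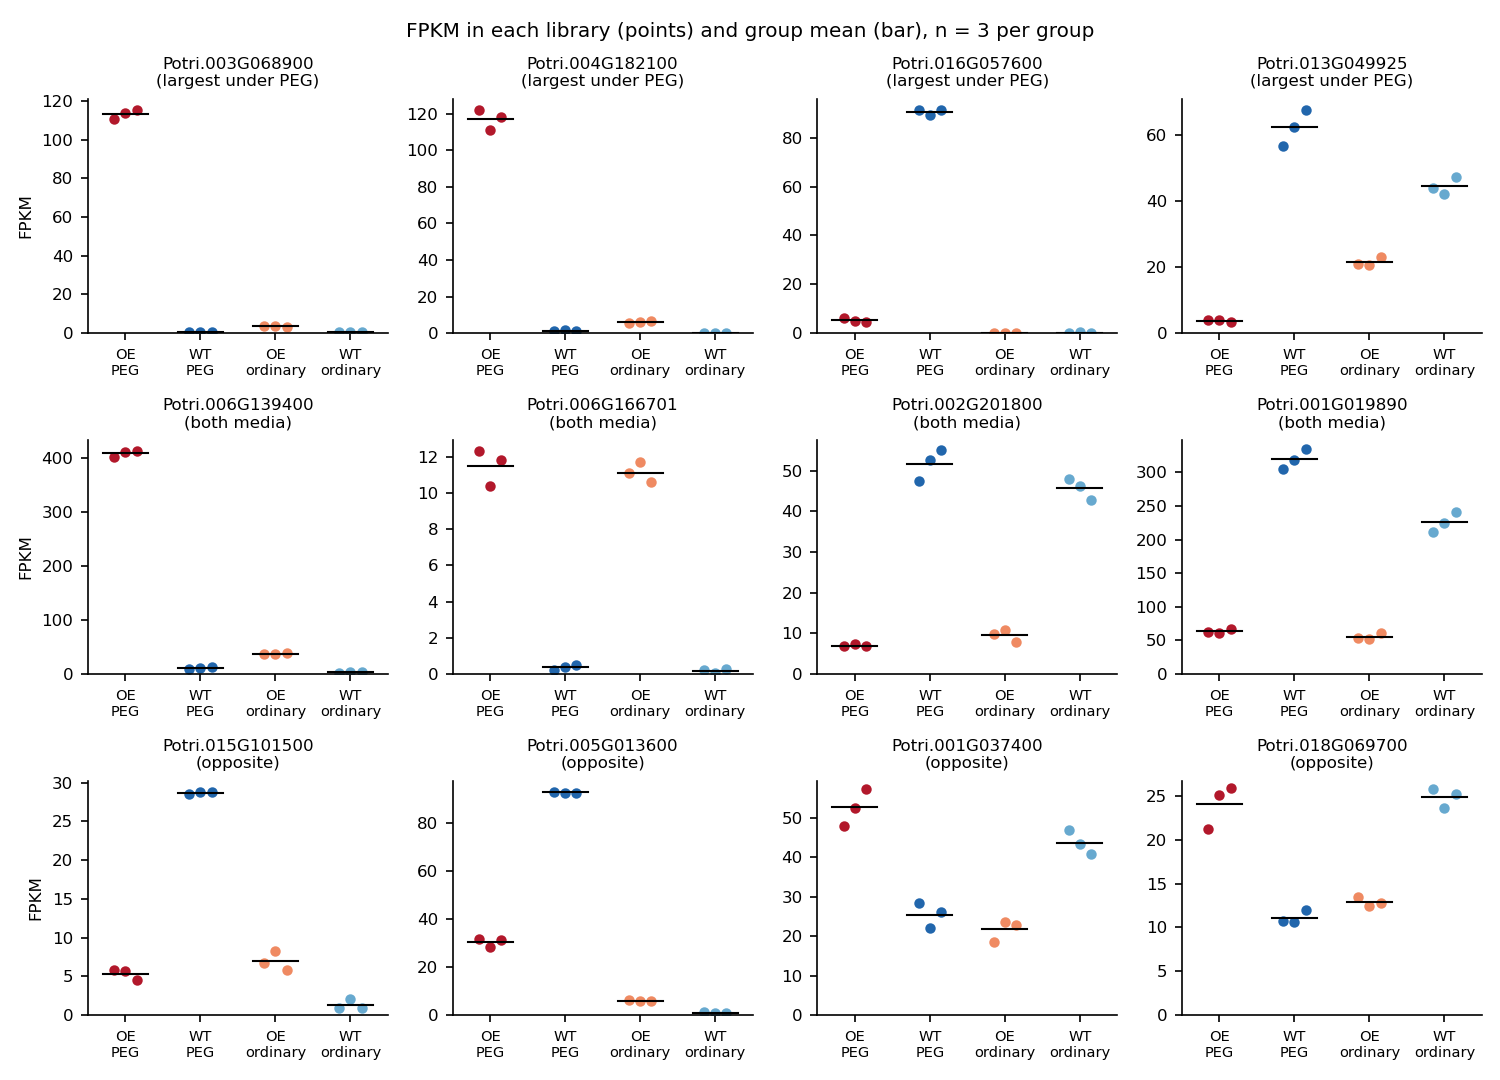
FPKM (vertical axes, each from 0) of 12 genes in every library, as points, with group means as bars, in the order OE PEG, WT PEG, OE on ordinary medium and WT on ordinary medium (n = 3 each). The top row holds the largest differences under PEG, the middle row genes that differed by 2-fold or more in the same direction on both media, and the bottom row genes that were opposite on the 2 media; Potri.003G068900 stands at 111 to 115 FPKM in OE PEG and under 4 FPKM in the other groups.

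The 1408 genes that were at least 2-fold higher in OE PEG were chosen by this contrast, so their levels in the PEG libraries are a description. Their median level was 20.4, 19.7 and 20.2 FPKM in the OE PEG libraries, against 4.56, 4.50 and 4.64 FPKM in the WT PEG libraries. The libraries from ordinary medium entered the choice only through the shared estimate of spread. In them the median was 5.98, 6.14 and 5.86 FPKM in OE and 2.96, 2.95 and 2.89 FPKM in WT. Their level in OE PEG was thus the highest of the 4 groups and that in WT on ordinary medium the lowest. Together they made up 11.97% to 12.03% of the summed FPKM in the OE PEG libraries and 3.89% to 3.90% in the WT PEG libraries, against 5.13% to 5.21% in OE and 3.07% to 3.09% in WT on ordinary medium. OE PEG had the highest group mean for 1350 of the 1408, and WT on ordinary medium the lowest for 905. In 225 of them all 3 WT PEG libraries were under 1 FPKM.

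The 776 genes that were at least 2-fold lower had a median of 5.10, 5.15 and 5.20 FPKM in the OE PEG libraries and 14.9, 15.5 and 15.6 FPKM in the WT PEG libraries. On ordinary medium the median was 8.54, 8.62 and 8.68 FPKM in OE and 10.2, 10.3 and 10.6 FPKM in WT. These genes were at their lowest in OE PEG and at their highest in WT PEG, with the ordinary-medium groups between them. Their share of the summed FPKM was 2.09% to 2.12% in OE PEG and 6.23% to 6.42% in WT PEG. OE PEG had the lowest group mean for 608 of the 776, and the highest was in WT PEG for 509 and in WT on ordinary medium for 223. All 3 OE PEG libraries were under 1 FPKM for 74 of them, and 774 of the 776 did not overlap between the 3 and 3 PEG libraries, as did 1408 of the 1408 higher genes. Over all genes tested, 37.9% lay higher without overlap and 33.9% lower. Both lists were chosen from these same PEG libraries, so their separation follows largely from the choice.

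**Figure D3:**
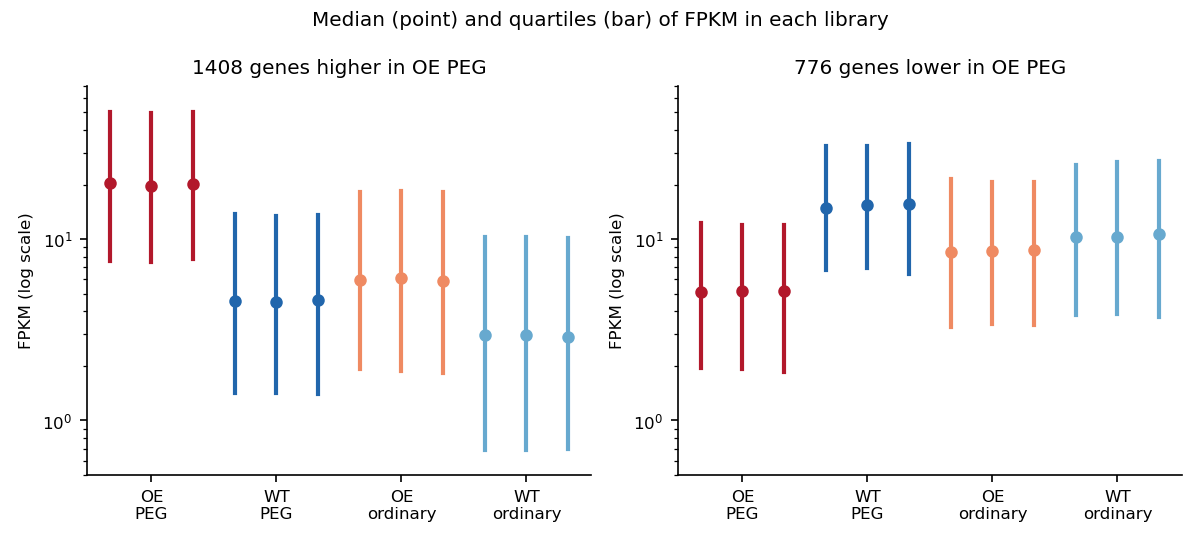
FPKM (logarithmic vertical axis) of the 1408 genes at least 2-fold higher (left) and the 776 genes at least 2-fold lower (right) in OE PEG, by library, with the point at the median and the bar from the lower to the upper quartile. The libraries run from OE PEG through WT PEG and OE on ordinary medium to WT on ordinary medium; the higher genes have medians of 19.7 to 20.4 FPKM in OE PEG against 4.50 to 4.64 FPKM in WT PEG.

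Set against growth on ordinary medium, the response to PEG of these genes differed between the genotypes. The median log2 change on PEG of the 1408 higher genes was 1.40 in OE and 0.26 in WT. For the 776 lower genes it was -0.67 in OE and 0.33 in WT. Both changes use the PEG libraries by which the genes were chosen and are given as description. Differences of 2-fold were found in all 7 bands of mean level. The share of genes higher was lowest at 1 to 2 FPKM (4.71%) and highest at 50 to 100 FPKM (11.03%), with 8.24% at 100 FPKM and over. The bands also differed in median gene length, with 1865 bp, 1367 bp and 1081 bp in these 3. The fold change fell with length, as described below, and the (FPKM + 1) scale holds back the fold of low genes. The part of either in these shares was not tested. The share lower was between 2.46% at 1 to 2 FPKM and 3.87% at 20 to 50 FPKM.

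Whether the OE difference under PEG was also present without PEG was read from the contrast of the 6 libraries on ordinary medium. Its group means share no library with those under PEG. Both contrasts came from the same fit, with a spread estimated over all 12 libraries. A gene of low spread was thus more easily called on both media, and the shares over all genes given beside do not account for this. Of the 1408 genes 2-fold higher under PEG, 1083 (76.9%) were also called higher in OE on ordinary medium, 57 were called lower and 268 were not called, where 31.8% of all genes tested were called higher there. Of the 776 genes 2-fold lower under PEG, 388 (50.0%) were called lower on ordinary medium, 191 (24.6%) were called higher and 197 were not called, where 22.9% of all genes were called lower and 31.8% higher. The higher genes thus mostly kept their direction, and 50.0% of the lower genes kept theirs. The median log2 difference between OE and WT on ordinary medium was 0.62 for the higher genes and -0.22 for the lower genes, beside 0.042 for all genes tested.

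At 2-fold on both media, 395 genes were higher, which is 28.1% of the list under PEG and 44.8% of the 881 on ordinary medium. For lower genes the overlap was 77, which is 9.92% of the list under PEG and 45.3% of the 170 on ordinary medium. Another 33 genes were 2-fold higher in OE on ordinary medium and 2-fold lower in OE under PEG, and 0 genes showed the reverse. The 33 were 4.25% of the 776 genes 2-fold lower under PEG, beside 3.86% of all genes 2-fold higher on ordinary medium. The 0 of 1408 stood beside 0.744% of all genes 2-fold lower there. Within the same lists the counts of 33 and 0 became 65 and 4 with voom, and 61 and 4 with a pseudocount of 0.1. Read from the other side, 634 of the 881 genes that were 2-fold higher on ordinary medium were called higher under PEG and 137 were called lower. Of all genes tested, 36.5% were called higher under PEG and 32.0% lower. With a pseudocount of 0.1 the counts at 2-fold on both media were 740 higher and 124 lower, so that they depend on how low values are treated.

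**Figure D4:**
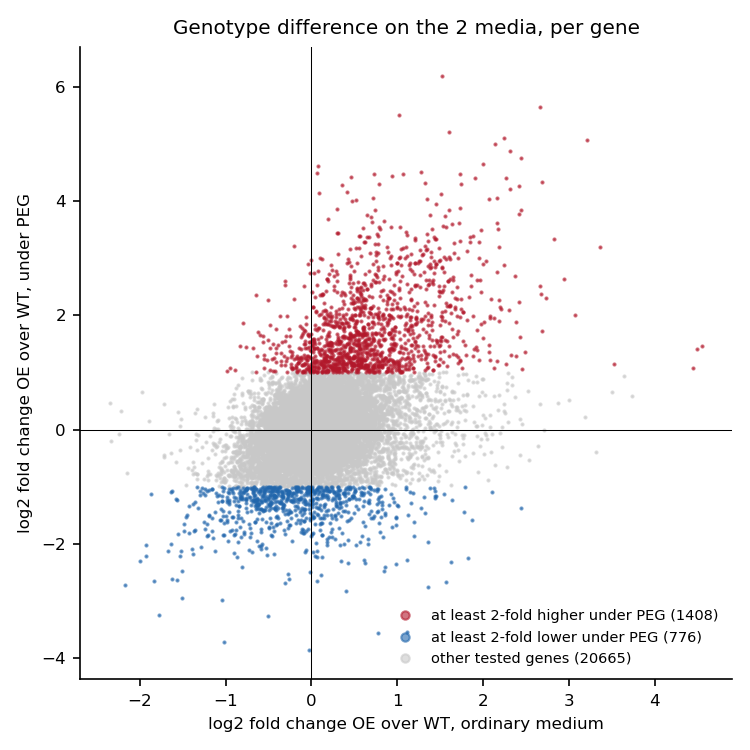
Each point is 1 of the 22849 genes tested, with the log2 fold change of OE over WT on ordinary medium (horizontal axis) and under PEG (vertical axis). Red points are the 1408 genes at least 2-fold higher and blue points the 776 genes at least 2-fold lower under PEG; most red points lie to the right of 0, and the blue points lie on both sides of it.

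The size of the OE difference on the 2 media was compared by the interaction of genotype and medium. Over all genes, the interaction was above 0 at 6401 genes (28.0%) and below 0 at 6652 (29.1%), and by at least 2-fold at 938 (4.11%) and 1128 (4.94%). With equal FPKM sums it was above 0 at 4683 genes and below 0 at 8553, and by 2-fold at 768 and 1479. With the trend with gene length described below removed, the counts were 5808 and 5940, and 796 and 1254 at 2-fold. The balance of the interaction thus depended on scaling. The interaction contains the PEG contrast by which the 1408 and 776 genes were chosen, so its direction in them is partly fixed by the choice. Among the 1083 genes higher in OE on both media the difference was larger under PEG for 891, smaller under PEG for 44, and not distinguished for 148. With voom 1096 of the 1408 were called higher on ordinary medium, and these 3 counts among them were 696, 85 and 315. With a pseudocount of 0.1 they were 772, 74 and 263 among 1109. The 891 had median levels of 24.7 FPKM in OE PEG and 5.08 FPKM in WT PEG, against 7.17 FPKM in OE and 3.26 FPKM in WT on ordinary medium. The 44 were abundant genes, with medians of 129.7 FPKM in OE PEG, 52.4 FPKM in WT PEG, 25.9 FPKM in OE and 5.07 FPKM in WT on ordinary medium. In a further 263 genes no difference was called on ordinary medium and the interaction was above 0, with medians of 6.78 FPKM in OE PEG and 1.72 FPKM in WT PEG, beside 1.86 and 1.61 FPKM in OE and WT on ordinary medium.

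Of the 388 genes lower in OE on both media, 332 were lower by more under PEG, 5 by less, and 51 were not distinguished. The 332 had medians of 6.21 FPKM in OE PEG and 17.4 FPKM in WT PEG, against 10.5 FPKM in OE and 16.8 FPKM in WT on ordinary medium. The WT medians were thus close on the 2 media and the OE median was lower under PEG. In the 191 genes that were lower under PEG and higher on ordinary medium, the medians were 5.96 FPKM in OE PEG and 18.0 FPKM in WT PEG, against 8.77 FPKM in OE and 5.32 FPKM in WT on ordinary medium. Here it was WT that differed most between the media. With reads weighted by limma voom, the interaction was called in the direction of the PEG difference at 989 of the 1408 and 715 of the 776 genes, against 1211 and 718 on the log2(FPKM + 1) scale.

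Some genes illustrate differences that were present on both media, chosen after the values were seen as the largest by the smaller of their 2 differences. Each had to be called and at least 2-fold on both media, without overlap on either, so these traits follow from the choice. Potri.006G139400 had 402, 413 and 414 FPKM in OE PEG and 10.2, 11.3 and 12.5 FPKM in WT PEG, and on ordinary medium 37.7, 37.8 and 38.3 FPKM in OE against 2.39, 3.84 and 3.52 FPKM in WT. The genotypes did not overlap on either medium, as the choice required, with log2 differences of 5.06 ± 0.10 under PEG and 3.21 ± 0.10 on ordinary medium (SE, limma, adjusted p = 1.3e-14 and 4.1e-12). Potri.006G166701 had 12.3, 10.4 and 11.8 FPKM in OE PEG, against 0.240, 0.371 and 0.483 FPKM in WT PEG. On ordinary medium it had 11.1, 11.7 and 10.6 FPKM in OE, against 0.221, 0.0446 and 0.281 FPKM in WT. Its OE values overlapped between the media, and its WT values, from 2 to 23 reads, averaged 0.365 FPKM under PEG and 0.182 FPKM on ordinary medium. The interaction was -0.17 ± 0.14 and did not pass the test (SE, limma, adjusted p = 0.33), nor did the value of -1.17 with voom (adjusted p = 0.074).

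Potri.002G201800 had 6.77, 7.42 and 6.84 FPKM in OE PEG, against 47.4, 52.5 and 55.1 FPKM in WT PEG. On ordinary medium it had 9.87, 10.8 and 7.77 FPKM in OE and 47.9, 46.2 and 42.9 FPKM in WT. Potri.001G019890 had 62.8, 61.4 and 66.7 FPKM in OE PEG, against 304, 319 and 334 FPKM in WT PEG, and 53.5, 52.7 and 60.5 FPKM in OE against 211, 224 and 241 FPKM in WT on ordinary medium. Both were several times lower in OE whichever the medium, with log2 differences under PEG of -2.72 ± 0.090 and -2.31 ± 0.058 (SE, limma, adjusted p = 2.2e-12 and 1.4e-13). On ordinary medium these differences were -2.17 and -2.00.

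Genes that were opposite on the 2 media were also picked after their values were seen, by the size of the smaller difference. They had to be called in opposite directions on the 2 media, without overlap on either. The sign of their interaction and much of its size were thus fixed by the choice, and its p-values are no separate test. Potri.015G101500 had 5.78, 5.63 and 4.46 FPKM in OE PEG and 28.5, 28.8 and 28.7 FPKM in WT PEG, whereas on ordinary medium it had 6.75, 8.24 and 5.87 FPKM in OE and 0.929, 2.08 and 0.861 FPKM in WT. The OE values of the 2 media lay close together, 4.46 to 8.24 FPKM, and the WT values lay far apart. Its interaction was -4.07 ± 0.23 (SE, limma, adjusted p = 2.2e-09). Potri.005G013600 had 31.6, 28.3 and 31.3 FPKM in OE PEG, against 92.9, 92.6 and 92.5 FPKM in WT PEG. On ordinary medium it had 6.21, 5.85 and 5.88 FPKM in OE and 1.05, 1.00 and 0.688 FPKM in WT. Both genotypes had more of this gene under PEG, and the OE PEG mean was 0.329 times the WT PEG mean. Its interaction was -3.45 ± 0.098 (SE, limma, adjusted p = 2.6e-12).

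In the other direction, Potri.001G037400 had 48.1, 52.5 and 57.5 FPKM in OE PEG against 28.4, 22.0 and 26.1 FPKM in WT PEG, and 18.6, 23.7 and 22.9 FPKM in OE against 46.9, 43.4 and 40.9 FPKM in WT on ordinary medium. Potri.018G069700 had 21.2, 25.1 and 26.0 FPKM in OE PEG against 10.7, 10.7 and 11.9 FPKM in WT PEG, and 13.5, 12.4 and 12.8 FPKM in OE against 25.8, 23.6 and 25.2 FPKM in WT on ordinary medium. OE PEG and WT on ordinary medium were thus the high groups for both genes. With the length trend described next removed, the log2 difference under PEG fell short of 2-fold for both, at 0.82 in place of 1.02 for Potri.001G037400 (279 bp) and 0.89 in place of 1.05 for Potri.018G069700 (1319 bp). Interactions were 2.01 ± 0.14 and 1.94 ± 0.10 (SE, limma, adjusted p = 2.1e-08 and 9.7e-10).

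The OE difference under PEG changed with the length of the gene. Over 10 classes of gene length with 2284 or 2285 genes each, the median log2 difference between OE PEG and WT PEG was 0.22 in the shortest class of 93 to 807 bp, 0.094 in the fifth and -0.30 in the longest class of 3779 to 17056 bp. In the shortest class 49.5% of genes were called higher and 20.2% lower, and in the longest class 10.5% were higher and 65.7% lower. Spearman's rho of length and fold change across the 22849 genes was -0.31, a description over genes of the same libraries. It lay between -0.31 and -0.29 in the 9 pairings of 1 OE PEG with 1 WT PEG library, and pairs of replicates within a PEG group reached at most 0.066 in size. On ordinary medium the rho of the OE difference was -0.016.

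The trend lay in the OE PEG libraries. Deviations of each library from the mean of all 12 had a rho with length of -0.33, -0.32 and -0.31 in OE PEG, against 0.14, 0.15 and 0.14 in WT PEG, 0.14 to 0.20 in OE on ordinary medium and 0.084 to 0.13 in WT on ordinary medium. The OE PEG libraries were thus the 3 of 12 with a negative value. Since the trend is shared by all 3 OE PEG libraries and is found in no other group, a property of these libraries and an effect of the genotype under PEG cannot be told apart. Genes 2-fold higher had a median length of 1339 bp and genes 2-fold lower one of 1669 bp, beside 1821 bp for all genes tested.

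**Figure D5:**
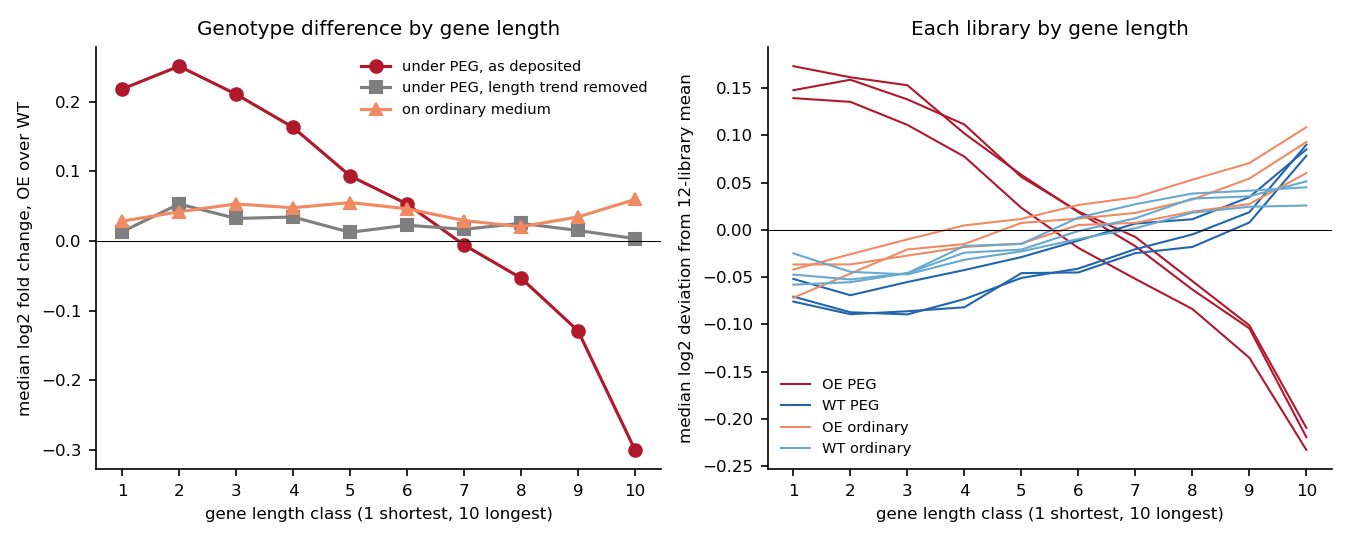
Left, median log2 fold change of OE over WT (vertical axis) in 10 classes of gene length (horizontal axis), under PEG as deposited, under PEG with the length trend removed from each library, and on ordinary medium. Right, median log2 deviation of each library from the mean of the 12 libraries in the same classes; the 3 OE PEG lines fall from 0.14 to 0.17 in the shortest class to between -0.23 and -0.21 in the longest, and the other 9 do not.

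Large differences mostly outlasted the removal of this trend, and most calls of any size kept their direction. With a smooth curve of length subtracted from each library, rho was -0.0029, and 33.4% of the shortest and 29.8% of the longest genes were called higher, with 30.5% and 29.5% lower. Of the 1408 genes 2-fold higher, 1407 were still called higher and 1230 stayed past 2-fold. All 776 of the lower genes were still called and 684 stayed past 2-fold. Counted anew without the trend, 1277 genes were 2-fold higher and 855 lower, so that 59.9% were higher in place of 64.5%. In the shortest class these counts went from 249 higher and 114 lower to 202 and 167. In the longest class they went from 28 and 72 to 46 and 22. The balance of the 2-fold differences thus depended in part on the trend. Of all 15658 genes called under PEG at any size, 12613 kept their call and direction and 103 were called with the sign turned. The largest named differences hardly moved, with Potri.003G068900 at 6.02 and Potri.016G057600 at -3.98 on the log2 scale.

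Genes with a large difference often lay next to each other in the order of the identifiers. Among 16120 pairs of neighbours on the same chromosome that were both tested, the gene after one that was 2-fold higher in OE PEG was itself 2-fold higher in 174 of 980 pairs (17.8%), beside 5.99% over all pairs. After a 2-fold lower gene the next was lower in 54 of 531 pairs (10.2%), beside 3.35% over all pairs. After a higher gene the next was lower in 2.76% of pairs, beside the same 3.35%. After a lower gene the next was higher in 4.52%, beside the same 5.99%. Neighbours with the same direction were thus more frequent than over all pairs, and neighbours with opposite directions were not. Runs of 2 or more held 21.9% of the higher genes and 12.8% of the lower genes. The longest runs were of 6 higher genes on chromosomes 11 and 17, and of 5 lower genes on chromosome 1. The 6 neighbours on chromosome 17 averaged 4.29 to 24.7 FPKM in OE PEG and 0.153 to 1.19 FPKM in WT PEG. Neighbouring genes can be near-identical copies, and whether these are was not examined. The sources used here do not say how the counting divided reads among copies, and the part of the counting in these runs was not tested. Chromosomes as a whole differed less, with 4.71% to 8.11% of genes higher and 2.47% to 4.94% lower over the 19.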

How the data were processed

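The authors deposited 1 table of FPKM values for 34699 genes in 12 libraries. The submitters' processing notes name Bowtie2 2.2.3, HISAT2 2.1.0 and HTSeq 0.6.0. The genome build and settings were not given in the sources used here. Groups came from the labels. Genes with a mean of at least 1 FPKM over the 6 PEG libraries were kept, log2(FPKM + 1) was taken, and limma 3.58.1 in R 4.3.3 (trend in eBayes, 4 group means, all 12 libraries, 8 residual degrees of freedom, two-sided) gave contrasts and Benjamini-Hochberg adjusted p. Fold changes on this scale understate low genes. A lone permutation test of 3 against 3 cannot go below 0.1, so none was used.

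Read numbers and gene lengths were recovered from the steps between low FPKM values, with a length for 100% of the genes tested, and the implied reads summed to 99.99% of the implied total in each library. A length was accepted only where the values of the gene were whole reads within rounding. That 100% of the tested values were whole reads (within 0.0001 FPKM or 0.001%) follows from this and is no separate check. On the recovered reads voom called 8455 genes higher and 7458 lower. Of read numbers under 20, 67.8% were even, so recovered reads may not be separate fragments. The trend with length was removed by lowess of each library's deviation from the gene mean on log length (span 0.3). The scripts were tested on simulated data. Named genes were the largest rises and falls among called genes that differed by at least 2-fold, had a mean of 10 FPKM in the higher group, did not overlap between 3 and 3 libraries and kept their call without the length trend; the 2 of each direction are printed. Genes that share or reverse direction between media were chosen after their values were seen, and had to be called without overlap on both media. The comparison and these rules were chosen with earlier results of these data known. Gene lists and markers by function were not used, since no description was at hand.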

Additional observations from a re-analysis of the deposited data

Results flagged for a closer look

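Differences between OE and WT that were not the same size under PEG and on ordinary medium are listed here, by the interaction in limma with Benjamini-Hochberg adjustment over all genes. As deposited, the interaction was above 0 at 6401 genes and below 0 at 6652 genes, a balance that depended on scaling as given above. Among the genes named above, it was 4.67 on the log2(FPKM + 1) scale for Potri.003G068900 and 2.99 for Potri.004G182100. With voom on the recovered reads that of Potri.004G182100 was 0.72 and did not pass (limma, adjusted p = 0.26); its WT libraries on ordinary medium held 4 reads each. It was -3.84 for Potri.016G057600 and -2.70 for Potri.013G049925. Of the genes that differed alike on both media, it was 1.85 for Potri.006G139400, -0.55 for Potri.002G201800 and -0.31 for Potri.001G019890. Of the genes that were opposite, it was -4.07 for Potri.015G101500, -3.45 for Potri.005G013600, 2.01 for Potri.001G037400 and 1.94 for Potri.018G069700. For the opposite genes the sign of the interaction was fixed by how they were chosen.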

How the results depend on the processing

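Counts called at any size under PEG stayed within 1.5 times of 8344 and 7314 in every alternative run, with the fewest higher genes, 6383, when FPKM sums were made equal. At 2-fold, voom on recovered reads gave 1223 lower genes in place of 776. In place of 1128, interactions of at least 2-fold below 0 were found at 1855 genes (pseudocount 0.1) and 1975 genes (voom). Genes 2-fold on both media numbered 740 higher and 124 lower with a pseudocount of 0.1, and 782 and 135 with voom, in place of 395 and 77; both settings shrink low values less. The rho of length and fold change was -0.35 at a mean of at least 5 FPKM, -0.28 with quantile normalization, -0.30 with voom and -0.0029 with the trend removed, which it was built to do. The interaction of Potri.006G166701, not called under any setting run, had the opposite sign with quantile normalization, 0.32, and the cause was not tested. For the genes named, 228 of 228 alternatives kept the PEG call, and 252 of 253 kept the interaction call in the 11 genes that had one. These genes were chosen for large differences in the main fit, so the counts are a description and no support. For the largest rises and falls, keeping the call with the length trend removed was itself a condition of the choice. Leaving out each library in turn gave 7701 to 8180 genes higher and 6881 to 7067 lower, 1400 to 1446 and 766 to 782 at 2-fold. In length classes 3 to 8 alone, 6.25% of genes were 2-fold higher and 3.22% lower.

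Replicate numbers did not pair the libraries: deviations of same-numbered OE PEG and WT PEG libraries correlated at 0.097, 0.043 and -0.0065. With the replicate block, 8302 genes were higher and 7275 lower, 1409 and 777 at 2-fold. With the block in the 6 PEG libraries alone, an alternative chosen after seeing the data, they were 8360 and 7182. The relation of length and fold change was not run without a filter, because lengths of weakly covered genes are ambiguous, and alternatives for gene lists were not run for want of descriptions.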
